A study of Mus musculus with 6 samples.

Results

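The genes described here encode the ATP-binding cassette (ABC) transporters of subfamilies A to G, chosen by symbol from probe sets annotated to exactly 1 gene. The rule found 65 of 20380 such probe sets, for 36 of 12393 genes, against 50 matching protein-coding genes in a RefSeq gene table. The other 14 were not analysed here. Total RNA came from livers at postnatal day 9 and was read on Affymetrix arrays. In the 3 mice called transgenic, a conditional Tcfeb overexpression allele was combined with Alb-Cre, whose albumin promoter limits recombination to cells that express or once expressed albumin. The 3 controls are labelled wild type, and the labels do not say whether they carry the allele or Cre alone, nor how many founder lines were used. The arrays are labelled biological replicates. Values are log2 expression as deposited, differences are transgenic minus wild type, errors are the SD over 3 arrays or, for a difference, its standard error (SE) from limma, and a gene passed when its p, adjusted over all 12393 genes, lay under 0.05.

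ABC proteins use the energy of ATP to move lipids, bile salts, conjugated drugs, peptides or metals across membranes. In hepatocytes the canalicular members build bile, the basolateral members return solutes and lipids to blood, and others serve lysosomes, peroxisomes and mitochondria. Subfamilies E and F lack membrane domains and act on ribosomes. TFEB, the factor that the transgenic mice are labelled as overexpressing, activates lysosomal and autophagy genes through a DNA element built around the E-box CACGTG.

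Stretches before annotated start sites are shown for the export pump and the member with the largest difference, because the data give a change for both and each holds a motif searched for. They are from RefSeq (GRCm38.p6), run 5′ to 3′ on the gene's strand, and carry the motif in capitals. Abcb11 lies at chr2:69342617-69342866 and Abca8a at chr11:110095938-110096187, each on the minus strand and ending at the base before the start site.
Abcb11: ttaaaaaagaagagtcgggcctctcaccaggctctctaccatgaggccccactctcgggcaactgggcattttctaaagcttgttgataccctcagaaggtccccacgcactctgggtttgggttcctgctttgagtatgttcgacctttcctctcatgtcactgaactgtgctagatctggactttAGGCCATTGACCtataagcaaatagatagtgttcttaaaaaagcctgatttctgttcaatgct
Abca8a: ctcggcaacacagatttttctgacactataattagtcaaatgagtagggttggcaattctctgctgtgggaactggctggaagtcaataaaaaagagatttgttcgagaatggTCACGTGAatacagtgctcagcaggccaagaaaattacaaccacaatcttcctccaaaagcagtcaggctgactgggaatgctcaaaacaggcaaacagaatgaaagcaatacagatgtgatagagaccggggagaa
The capitals in Abca8a are the extended E-box TCACGTGA, which overlaps the E-box CACGTG. In Abcb11 they match the inverted repeat bound by the bile acid receptor FXR with 1 position free, a pattern loosened after this stretch had been read.

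Promoter windows, from 250 bases before to 50 after a start site, were found for 27 of the 36 genes and searched on both strands. The E-box occurred in those of Abca1, Abca8a, Abca8b and Abcf1, 4 of the 27 genes. It was in 7.15% of all 32851 windows and 8.09% of all 27025 genes with windows. Of the 4 members with the E-box, Abca1, Abca8a and Abca8b fell and Abcf1 did not pass, where 38.9% of the family and 20.4% of all genes fell. In Abca1 (chr4:53160025-53160054) and Abcf1 (chr17:35969834-35969863), both on the minus strand, it began at position -147 and -101 from the start site, and the 30 bases around it are shown for a member that fell and one that did not pass.
Abca1: gggccatgtctcCACGTGctttctgctgag
Abcf1: gcccctttgcccCACGTGtctgcgcagcag
The extended E-box was in 0.974% of windows (1.12% of genes) and, among members, in that of Abca8a. The antioxidant core TGACNNNGC was in 12.4% of windows (14.0% of genes) and in those of Abca8b, Abcb1a, Abcc2 and Abcc10. Of these members Abca8b, Abcb1a and Abcc10 fell as well, and Abcc2 did not pass. The FXR inverted repeat without that free position was in 0.0274% of windows (0.0333% of genes) and in no member's. The loosened form was in 0.0852% of windows (0.104% of genes) and in that of Abcb11. A match describes letters and does not show a bound site, and no link between a motif and the calls was tested.

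Among checks of the labels, Alb read 14.87 ± 0.03 on wild-type arrays and 14.87 ± 0.01 on transgenic arrays, and Tfeb itself read 6.71 ± 0.18 and 6.50 ± 0.13 (adjusted p = 0.168), and since the labels do not describe the construct, this single probe set does not check them. Xist read 5.58 on transgenic replicate 1 and 13.03 to 13.19 on the other arrays, so that array alone has a male pattern. Without it 3 of the 36 members were called higher and 15 lower, against 2095 higher and 2067 lower of all 12393 genes. Of hepatocyte markers, 5 of 9 were lower and 0 higher, and their summed level (log2 of the summed linear values) was 16.98 to 16.99 on wild-type arrays and 16.76 to 16.79 on transgenic arrays. Over all genes 20.4% were lower and 19.9% higher, shares that stand beside every marker list below. A summed level is carried by the brightest genes, such as Alb, and can hide a change in fainter ones, such as Tdo2 (-3.58). In whole liver, fewer cells of a type and less RNA per cell cannot be told apart. Spiked bacterial hybridisation controls (bioB, bioC and bioD) read lower in the transgenic arrays, with a median difference of -0.37 over 14 probe sets. As hybridisation controls, they do not report RNA per cell or per liver, so scaling to them is an alternative and not an absolute scale. Scaling the arrays to them moved the median of all genes from -0.04 to 0.33 and the share of calls that were higher from 49.4% to 91.3%.

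Among the 36 ABC genes, 14 fell, 4 rose and 18 did not pass on the scale as deposited, so that 18 were called, against a background of 40.3% of all genes. The bile salt export pump Abcb11, the drug pump Abcb1a, the basolateral Abcc6, the peroxisomal Abcd2 and the lipid transporter Abca8a each fell at least 2-fold, and no member rose that far on its brightest probe set. The members that fell make up 38.9% of the family against 20.4% of all genes tested, and those that rose 11.1% against 19.9%. Changes of at least 2-fold downward were called for 2.65% of all genes and upward for 2.53%. The median difference was -0.19 over the family and -0.04 over all genes, a gap of 0.15. Scaling the arrays to the bacterial controls moved these medians to 0.18 and 0.33. It shifts every gene on an array alike, so it could not change that gap. With other processing the family median minus that of all genes ran from -0.23 without the 40% dimmest genes to -0.1 with probe sets taken singly. On the scale of the bacterial controls 7 members were called lower, namely Abca8a, Abca8b, Abcb1a, Abcb11, Abcc6, Abcd2 and Abcg8, against 5.31% of all genes. Called higher on it were 12 members, against 55.5% of all genes: the 4 that rose on the deposited scale, and Abcb1b (0.57), Abcf1 (0.52), Abcc3 (0.48), Abca7 (0.47), Abcb4 (0.44), Abcb8 (0.39), Abcc1 (0.35) and Abcf2 (0.29), which had not passed there. The groups did not overlap for 19 members that were lower (28.1% of all genes) and 6 that were higher (25.6%). Within groups the SD ran from 0.01 to 0.45 with a median of 0.08.

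**Figure D1:**
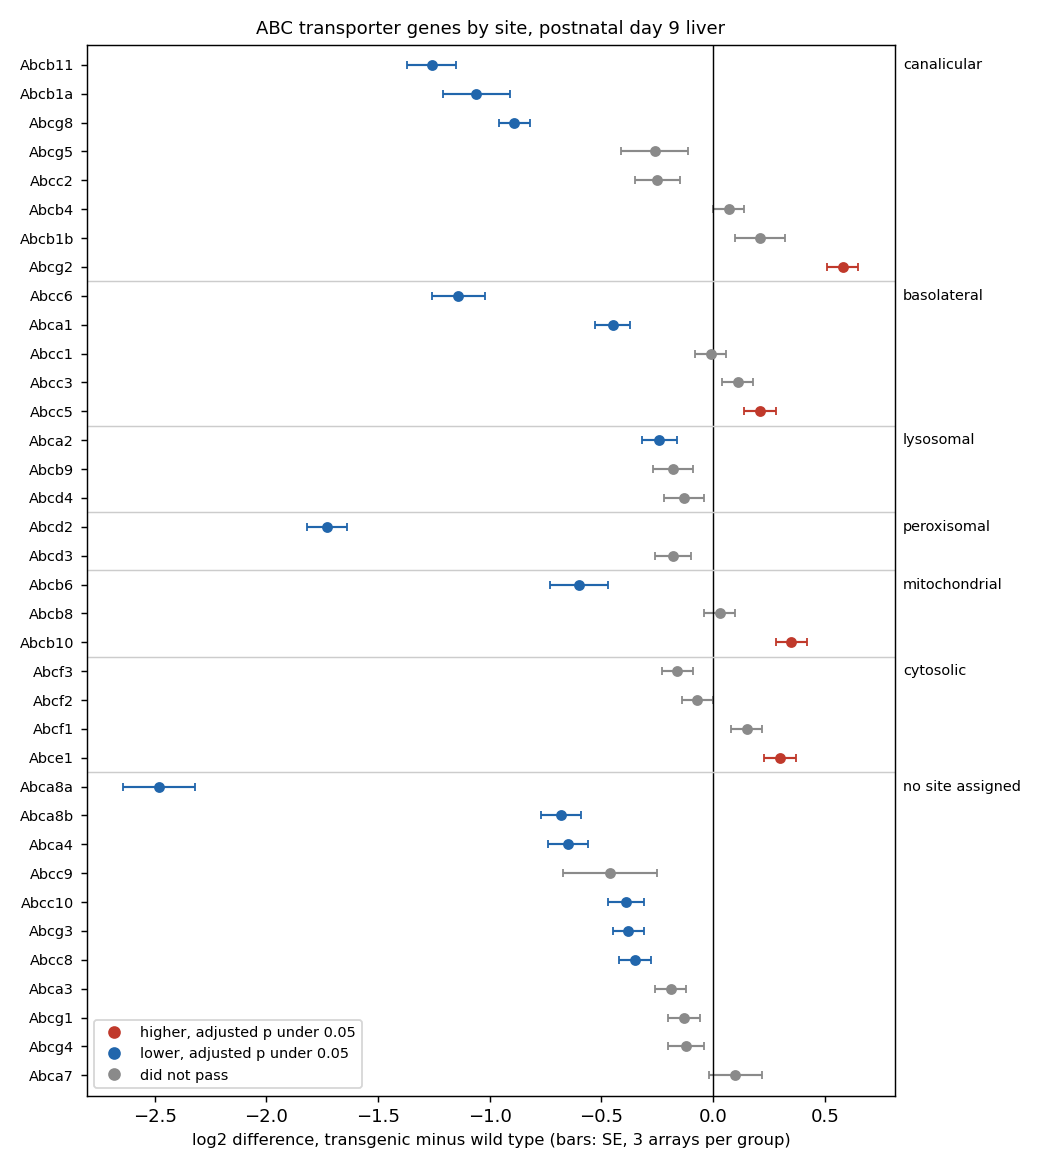
Log2 difference, transgenic minus wild type, for the 36 ABC genes grouped by site, with points at the limma estimate, bars of 1 SE and 3 arrays per group. On the deposited scale most points past the threshold lie left of 0, from -0.24 for Abca2 to -2.48 for Abca8a, and the 4 that rose lie between 0.21 and 0.58.

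At the canalicular membrane, where bile is formed, 3 of 8 members fell, 1 rose and 4 did not pass. Over all genes 20.4% fell and 19.9% rose. These shares stand beside the counts of every site below, and no site was tested against them. Abcb11 exports bile salts, the step that drives bile flow. It read 11.75, 11.53 and 11.39 on wild-type arrays and 10.38, 10.18 and 10.32 on transgenic arrays, a difference of -1.26 (SE 0.11, adjusted p = 9.88e-05). Every transgenic array thus lay about a log2 unit or more below the lowest wild-type array. Abcb4, the floppase that supplies phosphatidylcholine to the same bile, read 10.41, 10.49 and 10.48 on wild-type arrays and 10.62, 10.51 and 10.48 on transgenic arrays. Its groups overlapped and its difference was 0.07 (SE 0.07, adjusted p = 0.422), but with scaling to the bacterial controls it was called higher (0.44, adjusted p = 0.005). The ratio of Abcb11 to Abcb4 within an array, which scaling of the array cannot alter, fell by 1.34 on the log2 scale (exact permutation test, two-sided, p = 0.1, the smallest that 3 against 3 arrays allow).

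Abcg5 and Abcg8, which work only as a dimer that secretes sterols into bile and are neighbours on chromosome 17, had different values. Abcg8 read 8.96, 8.86 and 8.98 on wild-type arrays and 7.98, 8.10 and 8.07 on transgenic arrays, and fell by 0.89 (SE 0.07, adjusted p = 7.79e-05). Its groups stood apart with little spread in either. Abcg5 read 10.43, 10.29 and 10.33 on wild-type arrays and 9.73, 10.36 and 10.17 on transgenic arrays, a difference of -0.26 (SE 0.15, adjusted p = 0.2). Transgenic replicate 1, the array with the male pattern, was its low value and transgenic replicate 2 lay inside the wild-type range. The difference was -0.08 without the first of these and -0.40 without the other, and passed in neither case (adjusted p = 0.512 and 0.0681). The Abcg8 to Abcg5 ratio fell by 0.62 (exact permutation test, p = 0.1).

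Abcb1a encodes a P-glycoprotein, which expels drugs and other hydrophobic compounds, and is also found on endothelium of some organs. It read 8.05, 7.93 and 7.49 on wild-type arrays and 6.94, 6.74 and 6.61 on transgenic arrays, and fell by 1.06 (SE 0.15, adjusted p = 0.0014). Its fainter probe set fell by 0.76 (SE 0.10). Endothelial markers, of which 1 of 8 was higher and 4 lower, had a summed level of 12.18 to 12.43 on wild-type arrays and 12.22 to 12.41 on transgenic arrays, and their part in the Abcb1a result was not tested. The neighbouring P-glycoprotein gene Abcb1b read 3.37 ± 0.03 and 3.58 ± 0.23 and did not pass (adjusted p = 0.182), close to the lowest values on the arrays. It passed as higher without transgenic replicate 3 (0.33, adjusted p = 0.0397), with cyclic loess (0.32, adjusted p = 0.0489) and with scaling to the bacterial controls (0.57), and was 0.09 without transgenic replicate 2. Probes of these close relatives may bind both transcripts.

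Abcg2, which exports urate, porphyrins and drugs, was the canalicular member that rose. It read 10.26, 10.21 and 10.11 on wild-type arrays and 10.74, 10.73 and 10.84 on transgenic arrays, a rise of 0.58 or 1.5-fold (SE 0.07, adjusted p = 0.000613). The groups did not overlap. Abcc2, the exporter of bilirubin glucuronides and other conjugates, read 10.08, 10.03 and 10.06 on wild-type arrays and 10.03, 9.71 and 9.69 on transgenic arrays, a difference of -0.25 (SE 0.10, adjusted p = 0.0846). Without transgenic replicate 1, its highest transgenic value, the difference was -0.36 and passed (adjusted p = 0.0112), as it did with cyclic loess (-0.34, adjusted p = 0.0327).

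**Figure D2:**
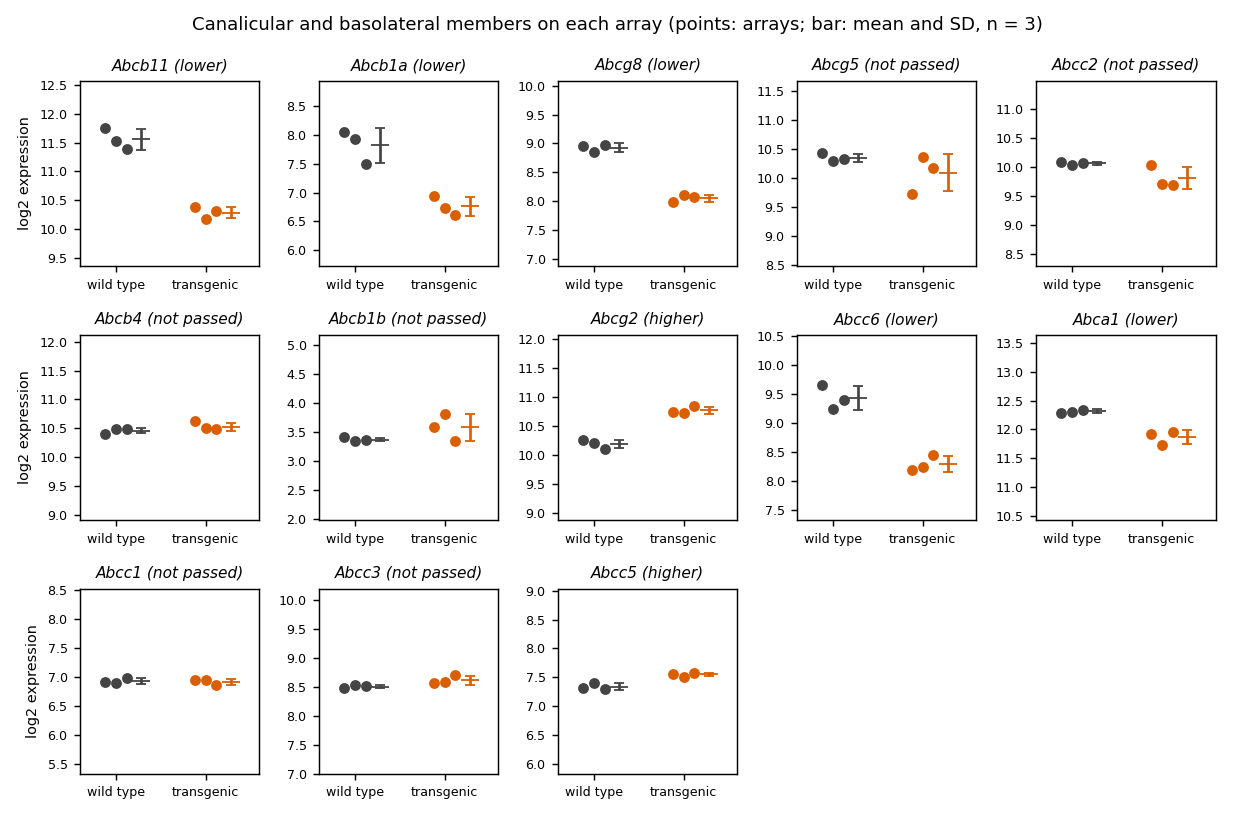
Log2 expression of the 8 canalicular and 5 basolateral members on each array, with points for single arrays and bars for the mean and SD of 3 arrays per group; panels share a span but not an origin. Abcb11, Abcb1a, Abcg8, Abcc6 and Abca1 lie lower in every transgenic array, and Abcg2 and Abcc5 higher.

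Of 5 basolateral members, 2 fell, 1 rose and 2 did not pass. Abcc6, which hepatocytes need to release ATP and whose loss causes the ectopic mineralisation of pseudoxanthoma elasticum, read 9.66, 9.24 and 9.39 on wild-type arrays and 8.18, 8.23 and 8.45 on transgenic arrays. That is a fall of 1.14 or 2.21-fold (SE 0.12, adjusted p = 0.000315) with no overlap. Abca1 loads cholesterol and phospholipid onto apolipoprotein A-I. It read 12.29, 12.31 and 12.34 on wild-type arrays and 11.92, 11.73 and 11.95 on transgenic arrays, and fell by 0.45 (SE 0.08, adjusted p = 0.00351), a call lost with scaling to the bacterial controls (-0.08, adjusted p = 0.502). All 3 of its probe sets fell, by 0.44 to 0.45. Macrophages also carry Abca1, and of their markers 4 of 9 were lower and 0 higher, with a summed level of 13.67 to 14.06 on wild-type arrays and 13.33 to 13.68 on transgenic arrays, whose part in the result was not tested.

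Abcc3, which returns glucuronides to blood, read 8.49, 8.54 and 8.52 on wild-type arrays and 8.57, 8.59 and 8.71 on transgenic arrays, 0.11 apart (SE 0.07, adjusted p = 0.236). The glutathione conjugate exporter Abcc1 read 6.92, 6.89 and 6.99 on wild-type arrays and 6.95, 6.95 and 6.86 on transgenic arrays, a difference of -0.01 (SE 0.07, adjusted p = 0.88). Neither gene passed, although the Abcc3 values did not overlap. The ratio of Abcc6 to Abcc1 fell by 1.13 (exact permutation test, p = 0.1).

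Abcc5, an exporter of cyclic nucleotides and organic anions, gave different sizes on its 7 probe sets. The brightest, which stood for the gene, read 7.32, 7.41 and 7.29 on wild-type arrays and 7.56, 7.51 and 7.57 on transgenic arrays, a rise of 0.21 (SE 0.07, adjusted p = 0.0379). That call was lost on leaving out any array other than wild-type replicate 2 (adjusted p = 0.0715 to 0.107), with a replicate block (0.0883) and with repeated quantile normalization (0.169), median centring (0.0795) or cyclic loess (0.0992). The next brightest read 6.44, 6.63 and 6.59 against 7.72, 7.96 and 7.77, a rise of 1.26 or 2.40-fold (SE 0.09, adjusted p = 3.81e-05 over all probe sets). With 7 of 7 probe sets higher, differences ran from 0.21 to 1.39, and the groups did not overlap on any of them. The mean of the 7 rose by 0.97 (SE 0.10, adjusted p = 0.000362).

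**Figure D3:**
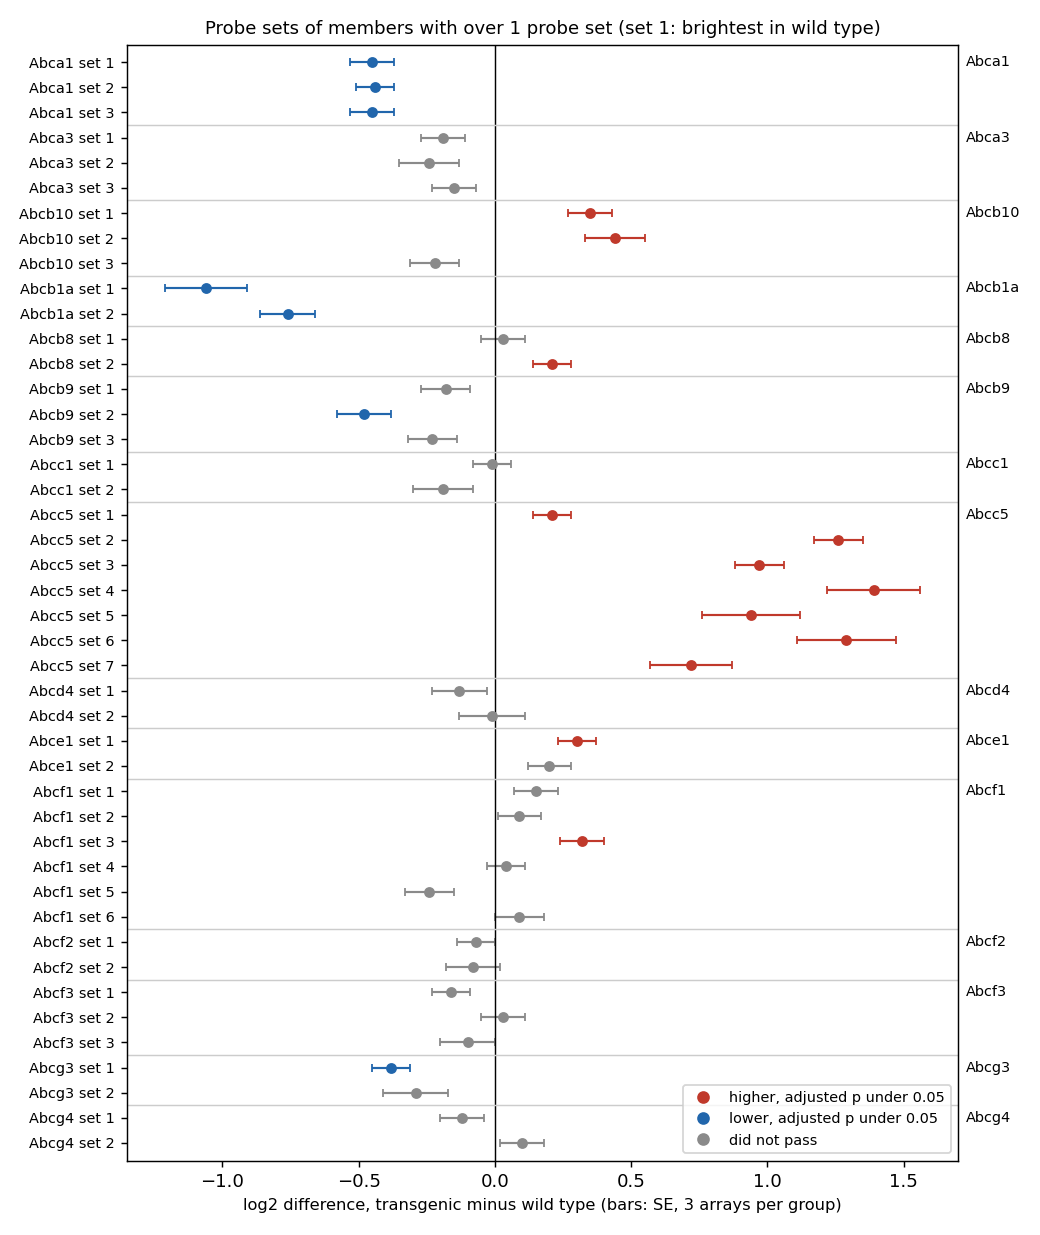
Log2 difference with 1 SE for each probe set of the 15 members with over 1 probe set, numbered from the brightest on wild-type arrays and adjusted over all 20380 probe sets. The 7 Abcc5 probe sets all lie right of 0, with the brightest at 0.21 and the others at 0.72 to 1.39, and no member has probe sets past the threshold on both sides.

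Counted singly, 13 of the 65 probe sets rose, 17 fell and 35 did not pass, against 18.7% higher and 17.6% lower over all probe sets. Abcc5 supplied 7 of the 13. Abcb9, Abcb8 and Abcf1 did not pass on their brightest probe set but had 1 fainter one called, at -0.48, 0.21 and 0.32 in that order. No gene had probe sets called in both directions.

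Lysosomal members showed small differences. Abca2, a lipid transporter of late endosomes and lysosomes, read 6.19, 6.25 and 6.19 on wild-type arrays and 6.01, 6.08 and 5.83 on transgenic arrays, and fell by 0.24 (SE 0.08, adjusted p = 0.0466), a direction that turned to 0.13 with scaling to the bacterial controls. That call was lost without any single array other than transgenic replicate 2 (adjusted p = 0.0694 to 0.131) with a replicate block (0.0649), with repeated quantile normalization (0.06) with cyclic loess (0.0899), with a trended and robust variance (0.0699) and with p adjusted over every probe set (0.0527), and the gene was among the 40% dimmest. The peptide transporter Abcb9 read 6.43 ± 0.04 and 6.25 ± 0.14, a difference of -0.18 that did not pass (adjusted p = 0.13), whereas the mean of its 3 probe sets fell by 0.30 and passed (adjusted p = 0.00642). Abcd4, needed for cobalamin to leave lysosomes, read 6.89 ± 0.16 and 6.76 ± 0.07 (adjusted p = 0.305). Of the proteins that handle cobalamin with Abcd4, Lmbrd1 fell by 0.44, a call lost with that scaling (-0.07), and Mmachc rose by 0.50.

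Of 2 peroxisomal members, Abcd2 fell and Abcd3 did not pass. Abcd2, an importer of very long chain acyl-CoA, read 8.28, 8.53 and 8.33 on wild-type arrays and 6.73, 6.55 and 6.67 on transgenic arrays. The groups were 3.31-fold apart (-1.73, SE 0.09, adjusted p = 1.46e-05), with the highest transgenic array far under the lowest wild-type one. Abcd3, which imports branched chains and bile acid precursors, read 12.04 ± 0.04 on wild-type arrays against 11.86 ± 0.13, a difference of -0.18 (SE 0.08, adjusted p = 0.13) with the groups touching. Without transgenic replicate 1 it was -0.25 and passed (adjusted p = 0.0488), as it did with cyclic loess (-0.25, adjusted p = 0.0458). The Abcd2 to Abcd3 ratio fell by 1.55 (exact permutation test, p = 0.1). Pex3 and Pex19, which insert such proteins into the peroxisome, fell by 0.30 and 0.29 on the deposited scale but not with scaling to the bacterial controls (0.06 and 0.07), and Pex5, the import receptor for matrix proteins, differed by -0.08 and did not pass but was called higher with that scaling (0.29, adjusted p = 0.0316).

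Of 3 mitochondrial members, 1 fell, 1 rose and 1 did not pass. Abcb6, a porphyrin transporter also found in other membranes, read 10.19, 9.75 and 9.77 on wild-type arrays and 9.17, 9.34 and 9.38 on transgenic arrays, and fell by 0.60 (SE 0.13, adjusted p = 0.00825), a call lost with scaling to the bacterial controls (-0.24, adjusted p = 0.14). Abcb10, an inner membrane protein of heme synthesis, read 8.39, 8.31 and 8.31 against 8.72, 8.75 and 8.58, and rose by 0.35 (SE 0.07, adjusted p = 0.00773). Its second probe set rose by 0.44, and the third differed by -0.22 and did not pass, and the mean of the 3 rose by 0.19 (adjusted p = 0.0457). Abcb8 read 7.65 ± 0.07 and 7.68 ± 0.07 (adjusted p = 0.775). The Abcb6 to Abcb10 ratio fell by 0.95 (exact permutation test, p = 0.1). Red cell precursors also use Abcb10, and of their markers 5 of 7 were higher and 0 lower, with a summed level of 10.59 to 10.77 on wild-type arrays and 11.31 to 11.59 on transgenic arrays. Their part in the Abcb10 and Abcb6 values was not tested.

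Of the 4 members without membrane domains, Abce1, which splits ribosomes for reuse, read 9.28, 9.31 and 9.41 on wild-type arrays and 9.59, 9.66 and 9.65 on transgenic arrays. It rose by 0.30 (SE 0.07, adjusted p = 0.0108) with no overlap. That probe set carries a suffix for possible cross-hybridisation, and the other read 0.20 higher and did not pass (adjusted p = 0.0968 over all probe sets). Abcf1, a factor of translation initiation, Abcf2 and Abcf3 differed by 0.15, -0.07 and -0.16 and did not pass. Abcf3 passed as lower with repeated quantile normalization (-0.23, adjusted p = 0.0401) and cyclic loess (-0.24, adjusted p = 0.0368).

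Of the 11 members with no site assigned, 6 fell, 0 rose and 5 did not pass. Abca8a and Abca8b are neighbours in a cluster of A-subfamily lipid transporters on chromosome 11. Abca8a read 11.80, 11.61 and 11.70 on wild-type arrays and 9.57, 8.92 and 9.17 on transgenic arrays, 5.58-fold lower (-2.48, SE 0.16, adjusted p = 3.05e-05). It had the largest difference of the family on the deposited scale and with the bacterial controls (-2.11). Abca8b read 8.99, 9.01 and 9.23 against 8.33, 8.34 and 8.5, and fell by 0.68 (SE 0.09, adjusted p = 0.000859). Neither gene's groups overlapped, and the Abca8a to Abca8b ratio fell by 1.80 (exact permutation test, p = 0.1). The 6 ratios compared were all at that smallest p, which stays 0.1 after adjustment over them, and the pairs were chosen with the single values known.

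Of the other 4 that fell, Abca4, Abcc10 and Abcc8 were among the 40% dimmest genes and Abcg3 was not. Abca4, the retinal flippase of photoreceptors, fell by 0.65 (SE 0.09, adjusted p = 0.000896) from 5.97 ± 0.10 to 5.32 ± 0.11. Abcc10 fell by 0.39, the sulfonylurea receptor Abcc8, a channel subunit of insulin cells, fell by 0.35, and the rodent gene Abcg3 fell by 0.38. With scaling to the bacterial controls none of these 4 was called, at -0.29, -0.02, 0.02 and -0.01, so the direction turned for Abcc8. Among the 5 that did not pass, the sterol exporter Abcg1 differed by -0.13, the surfactant lipid transporter Abca3 by -0.19, Abca7 by 0.10, Abcg4 by -0.12 and Abcc9 by -0.46. Abca3 passed as lower without the dimmest genes (adjusted p = 0.0461) and with repeated quantile normalization (0.0221), median centring (0.0406) or cyclic loess (0.0209). Abcc9, the sulfonylurea receptor of muscle and pericytes, had the widest spread in the family (5.72 ± 0.45 and 5.25 ± 0.18), and without wild-type replicate 1 the difference was -0.72 and passed (adjusted p = 0.00349), as it did with array weights (-0.62, adjusted p = 0.0205).

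**Figure D4:**
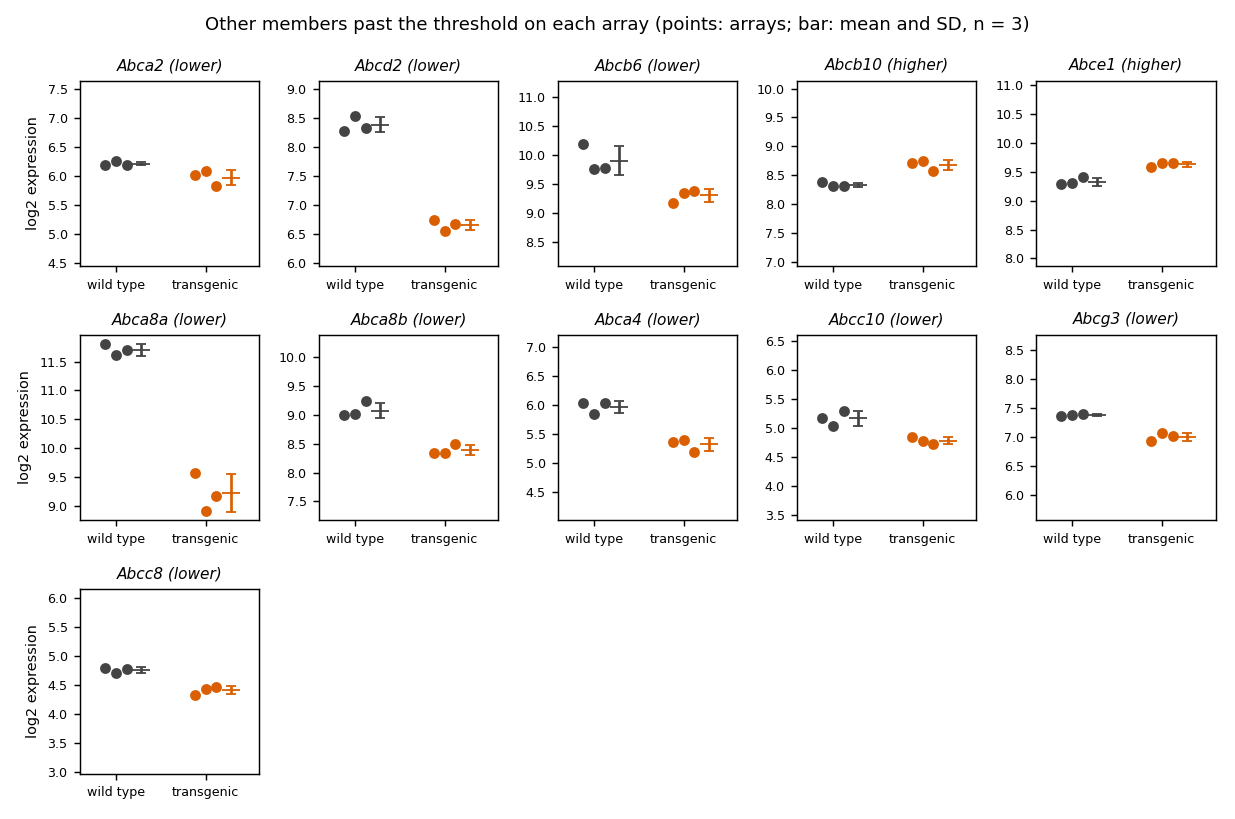
Log2 expression on each array for the 11 members past the threshold that are neither canalicular nor basolateral, with points for arrays and bars for the mean and SD of 3 arrays per group; panels share a span but not an origin. Abcb10 and Abce1 lie higher in every transgenic array and the other 9 lower, with Abca8a and Abcd2 farthest apart.

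By subfamily, 5 of 7 A members, 3 of 8 B, 3 of 8 C, 1 of 3 D and 2 of 6 G fell, with 0, 1, 1, 0 and 1 rising in that order. Over all genes 20.4% fell and 19.9% rose, and no subfamily was tested against these shares. Abce1, the only E member, rose, and 0 of 3 F members passed. The median difference was -0.45 in A, -0.08 in B, -0.30 in C, -0.18 in D, -0.07 in F and -0.20 in G. The P-glycoprotein genes Abcb1a and Abcb1b also neighbour Abcb4 on chromosome 5, and of these 3 genes Abcb1a alone was called.

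Regulators and partners of these transporters were read from a list of 38 genes, 33 of them measured. Of these 20 fell, 5 rose and 8 did not pass, against 20.4% lower and 19.9% higher over all genes, and with scaling to the bacterial controls 6 were called lower and 10 higher, where the shares of all genes were 5.31% and 55.5%. The transcription factors made up 10 of the 20. Nr1i3, the drug-sensing receptor CAR, fell by 2.08 (SE 0.07, adjusted p = 2.07e-06). Nr0b2, a repressor induced by bile acids, fell by 1.59, the dioxin receptor Ahr fell by 1.30 and Ppara fell by 1.09. The bile acid receptor Nr1h4 (FXR), which activates Abcb11, read 10.05 ± 0.13 and 9.54 ± 0.11 and fell by 0.51 (SE 0.09, adjusted p = 0.00386). Nr1h3, the oxysterol receptor that activates Abca1, Abcg5 and Abcg8, fell by 0.51, and the shared partner Rxra fell by 0.81. Nfe2l2, the NRF2 factor, was the transcription factor of the list that rose, by 0.43 (SE 0.07). With scaling to the bacterial controls Nr1i3 (-1.72), Nr0b2 (-1.22), Ahr (-0.94), Ppara (-0.72) and Rxra (-0.44) were still called lower, whereas Nr1h4 (-0.15, adjusted p = 0.287), Nr1h3 (-0.15), Nr1i2 (-0.07), Nr5a2 (-0.03) and Hnf4a (0.03) were not.

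Proteins that carry or anchor canalicular transporters were mixed, as 3 of 11 rose, 3 fell and 5 gave no call. With scaling to the bacterial controls 6 of the 11 were called higher and 0 lower, against 55.5% and 5.31% of all genes, so that the calls of the 3 that fell were lost. The syntaxin gene Stx3 rose by 1.39 (SE 0.13) and Rab11a, a GTPase of recycling endosomes, by 0.62 (SE 0.07). The membrane linker radixin, gene Rdx, rose by 0.25, whereas the scaffold gene Slc9a3r1 fell by 0.50, the scaffold gene Pdzk1 fell by 0.48 and the motor gene Myo5b fell by 0.30. Tmem30a, the flippase subunit, fell by 0.67. The acceptor gene Apoa1 fell by 0.19, which that scaling turned to 0.17 without a call, and Apoe differed by -0.06 and did not pass but was called higher with it (0.31, adjusted p = 0.0187). Of ABC proteins outside the symbol rule, the antigen peptide transporters Tap1 and Tap2 fell by 0.57 and 0.36, calls lost with scaling to the bacterial controls (-0.20 and 0.00), and Cftr, a channel of bile ducts, did not pass (5.22 ± 1.19 and 5.61 ± 0.14). Lymphoid markers, lower for 5 of 6 with none higher, had a summed level of 9.11 to 9.34 on wild-type arrays and 8.16 to 8.5 on transgenic arrays, and their part in the Tap1 and Tap2 values was not tested.

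**Figure D5:**
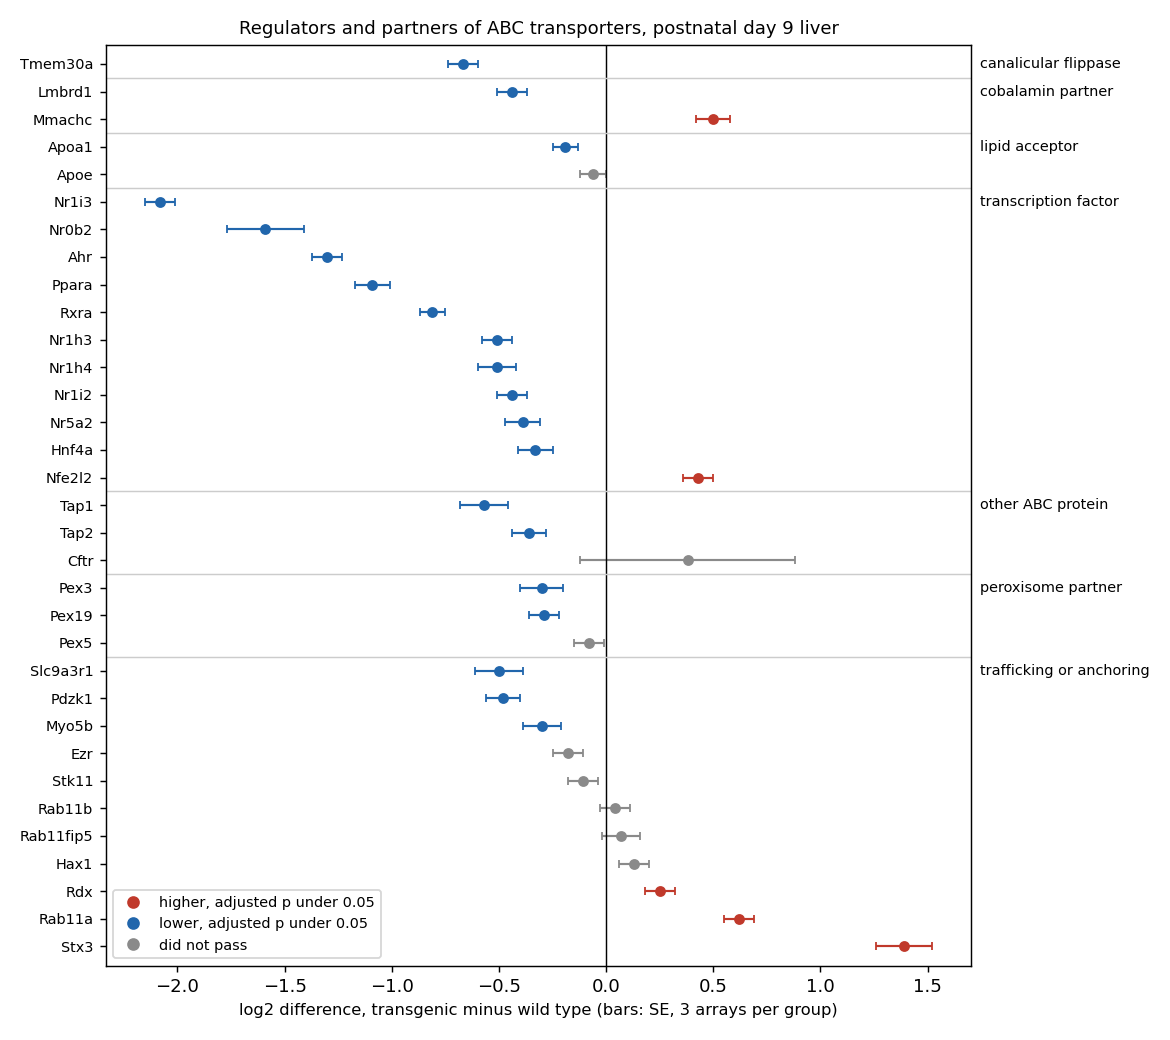
Log2 difference with 1 SE for the 33 measured regulators and partners, grouped by role, with 3 arrays per group. Of 11 transcription factors 10 lie left of 0, from -0.33 for Hnf4a to -2.08 for Nr1i3, and Nfe2l2 lies right of it at 0.43, whereas with scaling to the bacterial controls Hnf4a moves to 0.03.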

How the data were processed

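The deposited log2 values per probe set come from the authors' use of affy and RMA, as named without versions in the submitters' processing notes. RMA forces a like distribution on every array and hides any change in the total amount of RNA. The table holds 22690 probe sets, 0 missing values and no detection calls. In the platform annotation 20380 probe sets name 1 gene and 691 name several, 1555 lack a gene and 64 are controls. Symbols were checked by Entrez identifier against RefSeq (20351 matched, 0 changed).

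The brightest probe set on average stood for each gene. Groups of 3 arrays, as titled, were compared with limma 3.58.1 (lmFit, eBayes, no covariates) in R 4.3.3, adjusted by Benjamini-Hochberg over 12393 genes, with a threshold of 0.05. The number of arrays limits the precision. The limma p-values set a difference against the spread between arrays within groups, which eBayes draws toward a value shared over all genes. In the transgenic group that spread includes the array with the male pattern. Ratios of 2 members used exact permutation tests. Every member past the threshold or with an assigned site was named. Per-array values were due for changes of at least 2-fold and for surface members, and up to 4 partners in each direction for size of change. Per-array values of other members, the unassigned members that did not pass and further partners were added after their values were seen. The members, lists, sites and tests were chosen with earlier results of these data known. On simulated data with 200 of 12393 genes changed between transgenic and wild type, differences of 0.5, 1 and 2 were recovered for 55.2%, 92.5% and 100% of changed genes, with 6 false calls. Far fewer genes changed there than the 40.3% called in the real arrays, which sets another cut-off. These rates therefore check the code and do not describe this comparison. Of the marker lists, granulocyte genes were lower for 6 of 7, stellate genes for 2 of 5 and cholangiocyte genes for 1 of 7, with 4 of 7 of the last higher. Over all genes 20.4% were lower and 19.9% higher. Tables and figures used Python 3.11.15, pandas 2.3.3 and matplotlib 3.10.9. Motifs were searched in the RefSeq windows with Python. The alternatives are those named in the closing section.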

Additional observations from a re-analysis of the deposited data

How the results depend on the processing

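The 14 members lower and 4 higher were counted again with probe sets averaged per gene, with probe sets taken singly, with no cross-hybridising probe sets, no dim genes, other normalizations, other variance models, a replicate block and each array left out. Leaving out arrays gave 13 to 15 lower and 3 to 4 higher, and 1876 to 2411 higher and 1890 to 2407 lower over all genes, where 2467 and 2523 were called. With every probe set on its own, 13 member probe sets were higher, 3801 of all probe sets were higher, and 10 partner probe sets were higher and 36 lower. Scaling to the bacterial controls gave 12 members higher and 7 lower, 6877 genes higher and 658 lower, and 10 partners higher and 6 lower. Leaving out the 40% dimmest genes kept 7436 genes and 28 of the 36 members. Among them 4 members were higher and 11 lower, and 2338 genes were higher and 1660 lower. With a change of at least 2-fold as well, 0 members were higher and 5 lower, 314 genes higher and 328 lower, and 1 partner higher and 4 lower. Replicate numbers did not pair the arrays (correlations of same-numbered deviations of -0.0954, -0.0215 and 0.0507, with 1 of 6 arrays closest to its own number), and with the replicate block 3 members were higher and 13 lower, and 2111 genes higher and 2168 lower.

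Differences that changed sign with scaling to the bacterial controls were those of Abca2 (0.13), Abca3 (0.17), Abcb9 (0.19), Abcc1 (0.35), Abcc2 (0.12), Abcc8 (0.02), Abcd3 (0.19), Abcd4 (0.24), Abcf2 (0.29), Abcf3 (0.21), Abcg1 (0.23), Abcg4 (0.25) and Abcg5 (0.10). Of these only Abca2 and Abcc8 had been called before and only Abcc1 (adjusted p = 0.0127) and Abcf2 (adjusted p = 0.033) were called after it, and the sign change comes from the shift of all genes that this scaling makes. Abcb4 was -0.02 with cyclic loess. Abcb8, at 0.03, was -0.05 with quantile normalization again, -0.01 with median centring and -0.03 with cyclic loess, and -0.01 to 0.06 with single arrays left out. Abcc1 was -0.03 to 0.02 with single arrays left out. No detection calls were used, so for the 8 members among the 40% dimmest genes the signal over background is unknown.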
